A study of Mus musculus with 24 samples.

Results

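Parvalbumin and fast axon genes are a set of 8 genes (Pvalb, Scn4b, Nefh, Nefm, Nefl, Erbb4, Tac1 and Lhx6) that were chosen by name from the 33364 genes listed in RNA-seq count tables of mouse frontal cortex. Total RNA came from punches of 2 frontal areas, the medial prefrontal cortex (mPFC) and, beside it, the anterior cingulate cortex (ACC), of female and male C57BL/6 mice aged 3 months, taken 2 weeks after spared nerve injury (SNI), a peripheral nerve lesion used as a model of neuropathic pain, or after a sham operation. The 8 groups were therefore the female sham, female SNI, male sham and male SNI mice, each in the mPFC and in the ACC, and each group held 3 libraries. Every library was made from a pool of several animals, and differences among single mice are therefore partly averaged out within it. All groups shared the strain and age, and the labels name no engineered allele and no drug in any of them. Library totals ran from 23853845 to 32864391 gene counts (median 26727282), and a count of 3, used as the floor, corresponded to 0.0913 to 0.126 CPM, the unit of level used here, in which each count is divided by its library's total. Xist was counted 13914 to 20710 times in the 12 female libraries and 1 to 79 times in the 12 male libraries, whereas Ddx3y had 0 to 7 counts in females and 1071 to 1680 in males, so the sex labels matched the data in every library. Female sham mPFC replicate 3 and male sham ACC replicate 3 stood apart from their groups. The chi-square per gene against the other 2 pools was 15.2 and 15.6 for the first, where those pools gave 4.65 between them, and 19.3 and 22.2 for the second, against 2.78.

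Parvalbumin interneurons are inhibitory neurons of the cortex that fire fast trains of short action potentials onto the cell bodies and axon initial segments of pyramidal neurons. Parvalbumin, the product of Pvalb, is a cytosolic protein that binds calcium, and it gives these cells their name. Scn4b encodes the beta4 subunit of voltage-gated sodium channels, which is known for the resurgent sodium current of fast-spiking neurons. Nefl, Nefm and Nefh encode the light, medium and heavy neurofilament chains, the intermediate filaments that fill thick axons of both inhibitory and projection neurons. Erbb4 encodes a receptor tyrosine kinase for neuregulins that is found mainly on interneurons in the cortex, Tac1 encodes the precursor of substance P and neurokinin A, and Lhx6 encodes a transcription factor of interneurons that come from the medial ganglionic eminence, the source of parvalbumin and somatostatin cells. In tissue RNA, fewer cells of a type and less RNA per cell cannot be told apart, and this holds for every result on these genes.

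The genes lie on 7 chromosomes (GRCm38, GENCODE M21), and all 8 are protein coding. Pvalb (ENSMUSG00000005716) is at chr15:78191114-78206400 on the minus strand, Scn4b (ENSMUSG00000046480) at chr9:45138395-45154152 on the plus strand and Nefh (ENSMUSG00000020396) at chr11:4938754-4948064 on the minus strand. Nefm (ENSMUSG00000022054, chr14:68082590-68124846, minus strand) and Nefl (ENSMUSG00000022055, chr14:68083863-68089095, plus strand) lie over each other on opposite strands. They share 1108 annotated exonic bases, which are 19.2% of the exonic bases of Nefm and 32.8% of those of Nefl. The strand mode of the counting is not given in the sources used here, so reads from the shared bases cannot be assigned with certainty, and the values of Nefm and Nefl are uncertain to that extent. Erbb4 (ENSMUSG00000062209) is at chr1:68032186-69108059 on the minus strand, Tac1 (ENSMUSG00000061762) at chr6:7554879-7565834 on the plus strand and Lhx6 (ENSMUSG00000026890) at chr2:36081953-36105408 on the minus strand.

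The 250 bases upstream of Pvalb and of Lhx6 are shown because these genes of the same interneuron class gave the contrast that the data turn on, with Pvalb RNA differing several fold between the regions and Lhx6 RNA not. The sequences are from RefSeq (GRCm38.p6) and run 5′ to 3′ on the strand of the gene, up to the base before the annotated start, at chr15:78206401-78206650 for Pvalb and chr2:36105409-36105658 for Lhx6. Capitals mark letters that match a searched motif.
Pvalb: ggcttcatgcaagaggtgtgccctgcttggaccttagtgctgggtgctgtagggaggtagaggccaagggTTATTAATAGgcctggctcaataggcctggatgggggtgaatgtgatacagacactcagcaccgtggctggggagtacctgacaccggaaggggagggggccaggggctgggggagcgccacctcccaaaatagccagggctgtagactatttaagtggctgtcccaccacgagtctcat
Lhx6: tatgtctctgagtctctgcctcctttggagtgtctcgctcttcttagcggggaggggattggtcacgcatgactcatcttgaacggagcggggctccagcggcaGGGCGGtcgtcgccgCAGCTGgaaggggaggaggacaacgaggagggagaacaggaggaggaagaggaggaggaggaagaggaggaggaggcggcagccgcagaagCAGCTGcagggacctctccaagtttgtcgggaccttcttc
Motifs were searched on both strands. The TATA box was searched as TATAAA. For the GC box the letters were GGGCGG, and for the E box, which basic helix-loop-helix factors bind, CANNTG was used. The cyclic AMP response element was searched whole and as its shorter core of TGACG, which lies within it. The ERR half-site was read as AAGGTCA. The MEF2 site, which is bound by MADS-box factors of neurons and muscle, was searched by its full degenerate consensus. The Pvalb window held 1 MEF2 site, which starts 180 bases before the annotated start, and no other of these motifs. The Lhx6 window held 1 GC box, which starts 146 bases before the annotated start, and 2 E boxes, which start 131 and 40 bases before it. Of the 32851 upstream windows of the same length, 32.7% held a GC box, 66.2% an E box, 12.4% a TATA box, 2.92% a MEF2 site, 1.55% the whole cyclic AMP response element, 17.8% its shorter form and 4.08% an ERR half-site. GC content was 58.4% in the Pvalb window and 61.6% in the Lhx6 window. Windows at the annotated start were present for Pvalb, Erbb4 and Lhx6. Those of Scn4b and Tac1 began at another start site, and Nefh, Nefm and Nefl had no entry.

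Per kilobase of exon, so that genes of different length can be set side by side, Nefl and Nefm gave the most RNA. The median level in the ACC was 185 CPM per kb for Nefl, 53.8 for Nefm, 36.5 for Pvalb, 24.6 for Nefh, 17.9 for Scn4b, 10.2 for Erbb4, 4.56 for Lhx6 and 3.73 for Tac1. In the mPFC the medians were 140 CPM per kb for Nefl, 27.3 for Nefm, 11.2 for Nefh, 10.6 for Pvalb, 8.59 for Erbb4, 4.85 for Scn4b, 4.79 for Lhx6 and 3.9 for Tac1. In the mPFC, Nefh and Pvalb were not separated, since the group means were 10.3 to 11.9 CPM per kb for Nefh and 9.69 to 12.2 for Pvalb, and neither were Scn4b (4.14 to 5.95) and Lhx6 (4.21 to 4.99). Every gene was far above the floor, and the lowest count of any of them in any library was 229, for Pvalb. All 8 passed the low-count filter in each comparison.

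The comparison of the mPFC with the ACC asks how these genes differ between the cortical areas. Pvalb, Scn4b and the 3 neurofilament genes were lower in the mPFC in both sexes and after both operations, and the 12 mPFC libraries lay wholly below the 12 ACC libraries for each of the 5. Erbb4 was slightly lower and Tac1 slightly higher in the mPFC in the mean over sexes and treatments, whereas Lhx6 did not pass the test. Thus 7 of the 8 genes were called at a false discovery rate (FDR, Benjamini-Hochberg) under 0.1 by edgeR's quasi-likelihood test, 6 lower and 1 higher in the mPFC. In the same fit 49% of all 18078 genes tested were called, and 24.7% were called lower in the mPFC, so being called is common here. Libraries of the regions did not overlap for 4.87% of the genes tested, and 0.88% were called with a log2 fold change under -0.9, which Pvalb, Scn4b, Nefh and Nefm all reached. The median log2 fold change was -0.69 over the 8 genes and 0.00 over all genes tested. Without female sham mPFC replicate 3 the fit called 6 of the 8 (49.1% of all genes), since Tac1 was lost, and without male sham ACC replicate 3 it called 7 (50.7% of all genes).

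**Figure D1:**
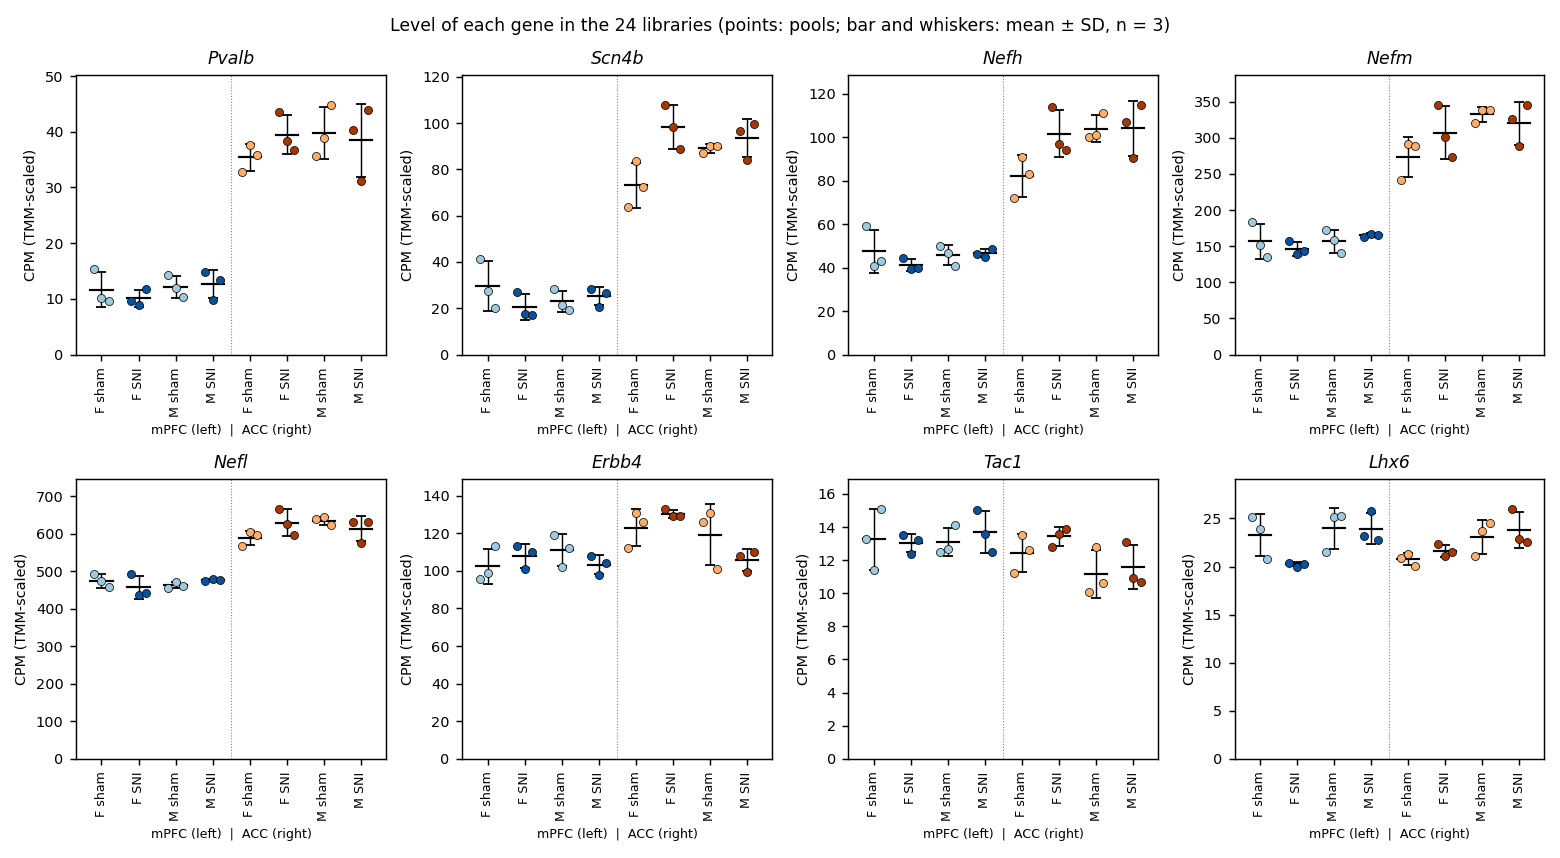
Level of each of the 8 genes in CPM (vertical axes, from 0) in the 24 libraries, with mPFC groups on the left and ACC groups on the right of each panel (F, female; M, male). Points are pools, and bars with whiskers are the mean ± SD of 3 pools. Pvalb, Scn4b, Nefh, Nefm and Nefl are lower in all 12 mPFC libraries than in any ACC library, while Erbb4, Tac1 and Lhx6 overlap between the regions.

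Pvalb stood at 15.3, 10.1 and 9.59 CPM in the female sham mPFC, 9.61, 8.81 and 11.8 in the female SNI mPFC, 14.2, 11.9 and 10.3 in the male sham mPFC and 14.9, 9.85 and 13.3 in its SNI counterpart. The ACC levels were 32.8, 37.6 and 35.9 CPM in the female sham, 43.5, 38.3 and 36.7 in the female SNI, 35.6, 38.8 and 44.9 in the male sham and 40.4, 31.1 and 43.9 in the male SNI group. The lowest ACC library, at 31.1 CPM, was far above the highest mPFC library, at 15.3 CPM. Averaged over sexes and treatments, Pvalb was 3.29-fold lower in the mPFC (log2 fold change -1.72, SE 0.08, adjusted p = 1.06e-13). Within single sexes and treatments the log2 fold change was -1.60 (SE 0.14) in sham females, -1.70 (SE 0.12) in sham males, -1.96 (SE 0.10) in SNI females and -1.59 (SE 0.14) in SNI males, with adjusted p-values of at most 9.79e-05.

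Scn4b had the steepest difference of the set in the mean, though in sham females Pvalb differed more. It stood at 41.4, 27.5 and 20 CPM in the female sham mPFC, 27.2, 17.4 and 17.2 in the female SNI mPFC, 28.1, 21.5 and 19.2 in the male sham mPFC and 28.2, 20.7 and 26.8 in its SNI counterpart. The ACC pools had 63.9, 83.4 and 72.2 CPM in the female sham, 108, 98.3 and 88.6 in the female SNI, 87, 90.2 and 89.9 in the male sham and 96.4, 84.1 and 99.7 in the male SNI group. The female sham groups came nearest to each other, since 1 mPFC pool of that group was the highest and its ACC pools were the lowest of their region. Averaged over sexes and treatments, Scn4b was 3.6-fold lower in the mPFC (log2 fold change -1.85, SE 0.10, adjusted p = 2.96e-13). The log2 fold change was -1.30 (SE 0.19) in sham females, -1.95 (SE 0.11) in sham males, -2.25 (SE 0.14) in SNI females and -1.88 (SE 0.10) in SNI males. Of 18078 genes ordered from the most ACC-enriched, Scn4b was number 34 and Pvalb number 43.

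Scn4b is also abundant in striatal projection neurons, whose tissue lies near the frontal cortex, so 10 genes of those neurons were set beside it. Their summed level was 246 to 322 CPM in the mPFC and 219 to 272 CPM in the ACC. In the mean over sexes and treatments, 6 of the 10 were called higher and 1 lower in the mPFC, where 49% of all genes tested were called. Drd1, a dopamine receptor of striatal neurons, had a log2 value of 0.77 (adjusted p = 5.62e-10), and Drd2, the receptor of the other striatal class, one of 1.48 (adjusted p = 4.25e-08). Penk, an opioid peptide precursor, was the gene called lower (-0.61). The part of striatal tissue in the values of Scn4b was not tested. Its highest sum, 322 CPM, was in the female sham mPFC pool with 27.5 CPM of Scn4b, and the pool with 41.4 CPM of Scn4b had 276.

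The 3 neurofilament chains formed a series in the mean, in which the heavy chain differed most between regions and the light chain least, while in sham females the heavy and medium chains were alike in size (-0.78 and -0.79). Nefh was 39.3 to 58.9 CPM in the 12 mPFC libraries (median 44.6) and 72 to 115 CPM in the 12 ACC libraries (median 98.3), and Nefm was 135 to 183 CPM (median 158) and 241 to 346 CPM (median 311). Nefl was 437 to 493 CPM (median 472) and 568 to 666 CPM (median 624). None of these ranges met between regions. Nefh was 2.16-fold lower in the mPFC (log2 fold change -1.11, SE 0.06, adjusted p = 3.74e-13), Nefm 1.96-fold (log2 fold change -0.97, SE 0.05, adjusted p = 2.49e-13) and Nefl 1.32-fold (log2 fold change -0.40, SE 0.03, adjusted p = 8.93e-12). All 3 were called in both sexes and after both operations, where the log2 fold changes ran from -1.29 to -0.78 for Nefh, from -1.07 to -0.79 for Nefm and from -0.45 to -0.31 for Nefl.

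The mix of chains within a library differed accordingly. The CPM ratio of Nefh to Nefl was 0.0859 to 0.12 in the mPFC (median 0.094) and 0.127 to 0.182 in the ACC (median 0.157), and that of Nefm to Nefl was 0.296 to 0.378 (median 0.33) and 0.424 to 0.547 (median 0.502). Both ratios separated the 12 libraries of a region from the other 12. The ratio of Nefh to Nefm overlapped, at 0.266 to 0.322 in the mPFC and 0.289 to 0.344 in the ACC. The ratios that hold Nefm or Nefl rest on genes that share exonic bases.

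Erbb4 was 95.6 to 119 CPM in the mPFC (median 106) and 99.4 to 133 CPM in the ACC (median 126), and the regions overlapped. It was called in females, where the mean was 102 ± 9.13 CPM (SD, n = 3) in the sham mPFC and 123 ± 10.2 in the sham ACC, and 108 ± 6.39 and 130 ± 2.44 after SNI. Its log2 fold change was -0.26 (SE 0.08, adjusted p = 0.0455) in sham females and -0.26 (SE 0.05, adjusted p = 0.00264) in SNI females. In males it was -0.09 (SE 0.10, adjusted p = 0.656, 95% interval -0.30 to 0.12) and -0.03 (SE 0.06, adjusted p = 0.76, 95% interval -0.15 to 0.09), and the difference between the sexes was not tested. The mean over sexes and treatments was -0.16 (SE 0.04, adjusted p = 0.00271). Erbb4 was the gene of the set with the lowest GC content of its exons (41.1%), and with each library's trend on GC content removed the value in sham females was -0.04 (adjusted p = 0.613). That call was also lost when any of 4 of the 6 libraries was left out, with log2 fold changes of -0.34 to -0.20 over the 6. In sham males edgeR called Erbb4 without male sham ACC replicate 3 (-0.20, adjusted p = 0.033), in a fit that called 27% of all genes. In SNI males it was called with the GC trend removed (-0.14, edgeR adjusted p = 0.0956), where 24.7% of all genes were.

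Tac1 was 11.4 to 15.1 CPM in the mPFC (median 13.2) and 10.1 to 13.9 CPM in the ACC (median 12.7). The ranges overlapped almost wholly, and the log2 fold change of the mean over sexes and treatments was 0.14 (SE 0.05, adjusted p = 0.0442). No single sex and treatment passed the test in the main fits. The values were 0.10 (SE 0.12) in sham females, 0.25 (SE 0.11) in sham males, -0.03 (SE 0.08) in SNI females and 0.25 (SE 0.10) in SNI males. The call in the mean was lost without female sham mPFC replicate 3 (adjusted p = 0.124), without replicate 3 of the male sham mPFC (0.127) and without that of the male SNI ACC (0.108), by edgeR in each case. In sham males edgeR called Tac1 without ACC replicate 2 (0.34, adjusted p = 0.0962), where 9.76% of all genes were called. In SNI males it was called without ACC replicate 1 (0.34, adjusted p = 0.0658, 12.7% of all genes) and without the low-count filter (0.24, adjusted p = 0.0936, 13.5%).

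Lhx6 was 20 to 25.8 CPM in the mPFC (median 23) and 20.1 to 26 CPM in the ACC (median 21.9). The libraries of the regions were mixed, the log2 fold change of the mean over sexes and treatments was 0.03 (SE 0.04, adjusted p = 0.5), and its 95% interval was -0.05 to 0.12. Values in single sexes and treatments were 0.17 (SE 0.08), 0.06 (SE 0.09), -0.09 (SE 0.06) and 0.01 (SE 0.08) in sham females, sham males, SNI females and SNI males. None passed the test in the main fits. Without female sham mPFC replicate 3, edgeR called Lhx6 higher in the mPFC of sham females (0.245, adjusted p = 0.019), in a fit that called 41.5% of all genes. The CPM ratio of Pvalb to Lhx6 within a library was 0.382 to 0.66 in the mPFC (median 0.473) and 1.36 to 1.95 in the ACC (median 1.73), with no overlap. That of Tac1 to Lhx6 overlapped, at 0.477 to 0.727 and 0.432 to 0.645.

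**Figure D2:**
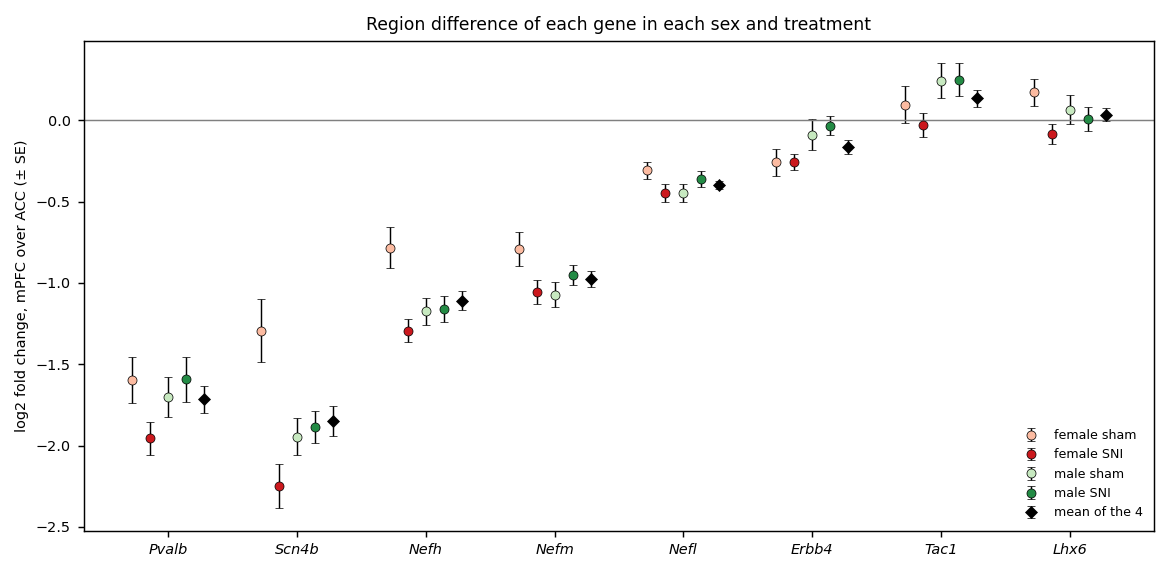
Log2 fold change of the mPFC over the ACC (vertical axis) for each of the 8 genes, with whiskers of 1 SE, in sham and SNI mice of each sex (circles, 3 against 3 pools) and in the mean of the 4 (diamonds, 12 against 12). Pvalb and Scn4b lie between -2.25 and -1.30, Nefl between -0.45 and -0.31, and Lhx6 on both sides of 0.

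In the main fits of the 4 comparisons of regions within a sex and treatment, the same 5 genes passed each time, with Erbb4 added in females. Thus 6 of 8 were called in sham females, where 28.5% of all genes tested were, and 6 in SNI females (27.6% of all genes). In males 5 of 8 were called in the sham mice (14.2% of all genes) and 5 in the SNI mice (21% of all genes). Every call of these 4 comparisons was lower in the mPFC.

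Other genes of parvalbumin cells were read from lists chosen with earlier results of these data known. All 8 listed genes of these cells were called lower in the mPFC, with a median log2 fold change of -0.57. In the same fit 24.7% of all genes tested were called lower. Vamp1, which encodes a vesicle fusion protein, had a log2 value of -1.35 (SE 0.06, adjusted p = 7.29e-14), Hapln4, a link protein of the perineuronal net, -0.86 (SE 0.04), Cplx1, the complexin of fast release, -0.77 (SE 0.04), and Ppargc1a, a coactivator of mitochondrial genes, -0.57 (SE 0.04). The 4 genes of GABA synthesis and transport were also all called lower, with a smaller median of -0.15. Gad1 had -0.43 (SE 0.03, adjusted p = 3.07e-12) and Slc32a1, the vesicular GABA transporter, -0.17 (SE 0.05, adjusted p = 0.00546). The CPM ratio of Pvalb to the sum of Gad1 and Gad2 was 0.0211 to 0.0365 in the mPFC and 0.0654 to 0.0859 in the ACC, with no overlap.

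Of 12 factors of interneuron lineages tested, 4 were called, all lower in the mPFC, and the median log2 fold change of the 12 was -0.02. This is not above the 49% of all genes called in the same fit. Maf and Satb1, which act with Lhx6 in cells from the medial ganglionic eminence, had -0.39 (SE 0.04, adjusted p = 6.78e-09) and -0.35 (SE 0.03, adjusted p = 3.2e-10). Markers of other interneuron classes went both ways, with 9 of 14 called higher and 4 lower in the mPFC and a median of 0.18. Nos1, the neuronal nitric oxide synthase, had a log2 value of 1.11 (SE 0.04), Cnr1, the cannabinoid receptor of basket cells that express cholecystokinin, 0.40 (SE 0.04), and Sst, the peptide of the sister class of parvalbumin cells, 0.15 (SE 0.05, adjusted p = 0.019). Lamp5, which marks neurogliaform cells, had -0.998 (SE 0.06). Sst was named after its values were seen.

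The counts of the next 3 lists are from the mean over sexes and treatments, where 49% of all genes tested were called. Of 7 other sodium channel subunits, 4 were called lower and 2 higher in the mPFC. Scn1a, the pore subunit typical of parvalbumin cells, had a log2 value of -0.96 (SE 0.05). Scn3b and Scn3a were higher, with 0.52 (SE 0.03) and 0.42 (SE 0.04). Of 9 scaffold genes of the axon initial segment and node, 3 were called lower and 3 higher, and the lower ones included Cntnap1, a paranodal protein, with -0.52 (SE 0.04), and Ank3, the master scaffold, with -0.20 (SE 0.03). Of 9 other genes of the axonal cytoskeleton, 3 were called lower and 5 higher. Ina, the neurofilament partner alpha-internexin, had -0.13 (SE 0.03, adjusted p = 0.00105), and Gap43, a growth cone protein, had 0.66 (SE 0.04). Ina was thus lower in the mPFC by less than any of the 3 neurofilament chains, and it too was named after its values were seen.

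Of 9 neuregulins and ErbB receptors beside Erbb4, 2 were called, both lower in the mPFC, and the median was -0.04, a smaller share than among all genes. These were Egfr with -0.11 (SE 0.05, adjusted p = 0.0811) and Nrg1, an Erbb4 ligand, with -0.10 (SE 0.05, adjusted p = 0.0845). Among tachykinins and their receptors, 3 of 5 were tested and 2 were called, both higher in the mPFC. Tacr1, the receptor of substance P, had 1.29 on the log2 scale (SE 0.10, adjusted p = 5.62e-10) at 2.7 ± 0.497 CPM (SD, n = 12) in the mPFC and 1.11 ± 0.183 in the ACC, and Tac2, the neurokinin B precursor, had 0.64 (SE 0.07).

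Markers of other cells in the punches were read against the same 49% of all genes called, which several of these short lists do not stand out from. Of 6 layer 5 genes, 4 were called higher and 2 lower in the mPFC, led by Crym (0.89, SE 0.05). Of 6 genes of excitatory neurons, 1 was called higher and 2 lower, and Slc17a6, a vesicular glutamate transporter of thalamic and some cortical neurons, had -1.24 (SE 0.09, adjusted p = 4.49e-11). Oligodendrocyte genes were lower in the mPFC in the mean over sexes and treatments, with 8 of 10 called and a median of -0.31. In sham mice 0 of 10 were called, with medians of 0.05 in females (28.5% of all genes called) and -0.04 in males (14.2%). After SNI 9 of 10 were called lower in each sex, with medians of -0.71 in females (27.6% of all genes called) and -0.45 in males (21%). The region by SNI interaction called 0 of these 10 genes, with a median of -0.58, so a change of the region difference with SNI was not shown. The summed level of the oligodendrocyte genes was 1124 to 3930 CPM in the mPFC and 2586 to 4271 CPM in the ACC. The lowest was 1 pool, female SNI mPFC replicate 1, and the other pools of its group had 2800 and 2578 CPM. Of the remaining lists, astrocyte genes had 1 of 5 called higher and 4 lower, microglial genes 3 of 4 higher, endothelial genes 3 of 3 lower and meningeal fibroblast genes 3 of 3 lower. The part of these cells in the differences of the 8 genes was not tested.

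**Figure D3:**
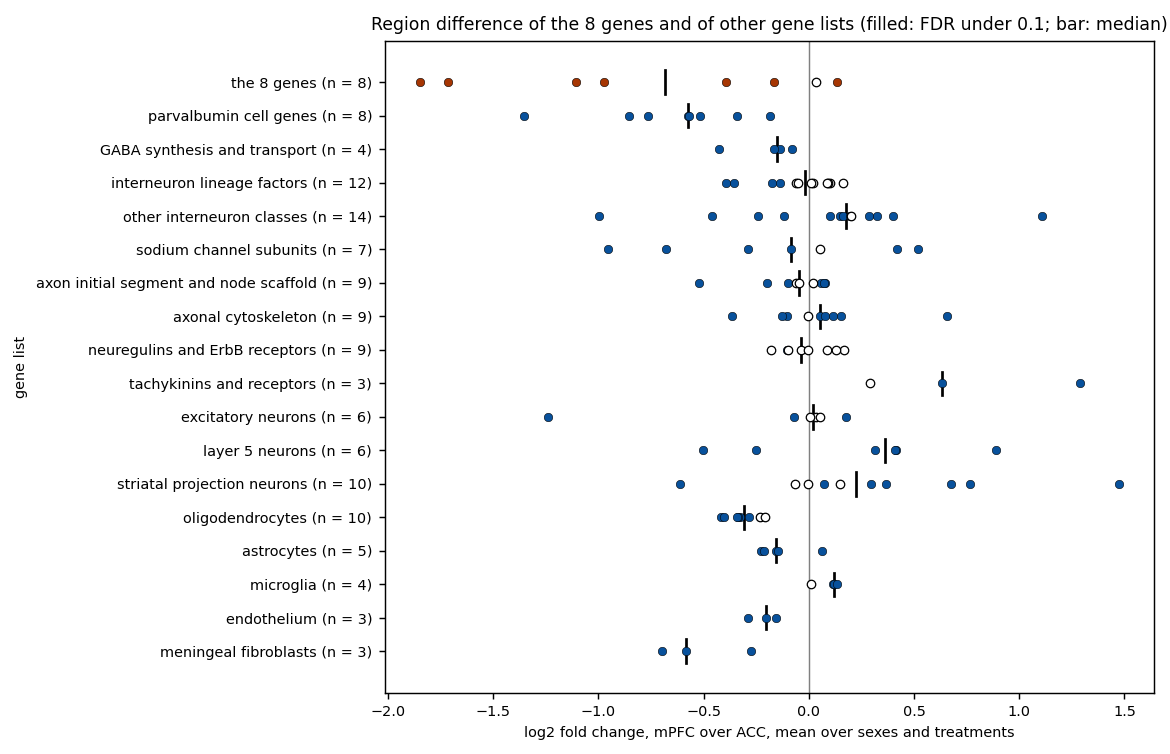
Log2 fold change of the mPFC over the ACC, mean over sexes and treatments (horizontal axis), for the 8 genes (top row) and for the tested genes of 17 other lists. Filled points passed an FDR of 0.1, open points did not, and the bar is the list's median. The 8 genes have a median of -0.69, the other parvalbumin cell genes -0.57 and the factors of interneuron lineages -0.02.

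Levels moved together across libraries in 5 of the 8 genes. Over the 24 libraries, Pearson's r between pairs of Pvalb, Scn4b, Nefh, Nefm and Nefl was 0.96 to 0.99 on the log2 CPM scale, and these points share the region difference. With the mean of each of the 8 groups taken away, r between these genes was 0.37 (Pvalb with Nefl) to 0.90 (Nefh with Nefm), which describes the libraries and is not tested. Points share library, depth and, for Nefm and Nefl, exonic bases. In the 12 mPFC libraries the deviations of Pvalb had r = 0.73 with those of Nefh and 0.17 with those of Nefl, and in the 12 ACC libraries 0.91 and 0.71. The female sham mPFC pool with the most Scn4b, replicate 1, was also the highest mPFC library for Pvalb (15.3 CPM), Nefh (58.9), Nefm (183) and Nefl (493).

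Erbb4, Tac1 and Lhx6 followed the other 5 less closely. Over the 24 libraries Erbb4 had r of 0.50 to 0.56 with these genes and Tac1 -0.46 to -0.40. Deviations of the 3 genes had r of -0.055 to 0.345 with those of the others over the 24 libraries, though in the 12 ACC libraries Erbb4 reached 0.597 with Nefl and 0.49 with Scn4b. Erbb4 and Tac1 had r = 0.51 with each other, and Erbb4 and Lhx6 had r = -0.48, which was -0.78 in the 12 mPFC libraries and -0.21 in the 12 ACC libraries.

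**Figure D4:**
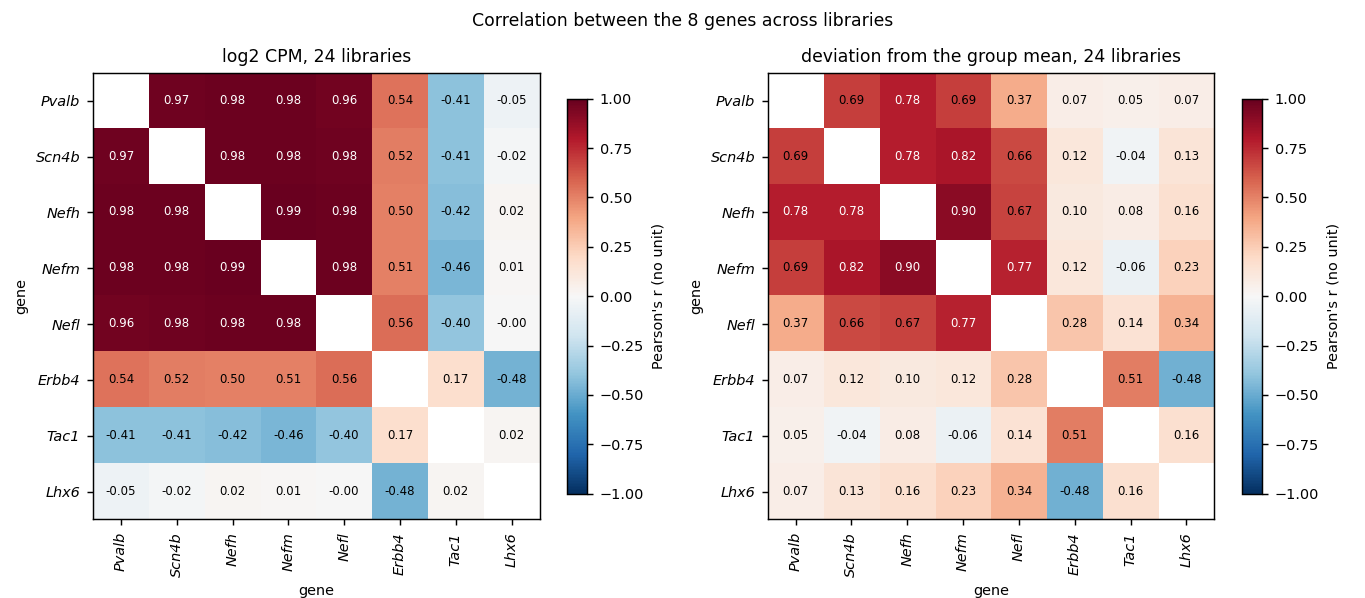
Pearson's r between pairs of the 8 genes over the 24 libraries, for log2 CPM (left) and for deviations from the mean of each group (right). Pvalb, Scn4b, Nefh, Nefm and Nefl form a block of 0.96 to 0.99 on the left and 0.37 to 0.90 on the right, while Lhx6 lies between -0.05 and 0.02 with those 5 genes on the left.

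The genes most like each of the 8 over the 24 libraries were sought among 14711 genes by Pearson's r of log2 CPM, and the 8 genes themselves were left out of the neighbours named. Among all 14711, Nefh and Nefm were each other's nearest gene (0.992) and Nefm was the nearest to Nefl (0.984). Vamp1 (r = 0.991), Syt2 (0.99) and Kcnab3 (0.985) were nearest to Pvalb, where Syt2 is the fast calcium sensor of synaptic vesicle release and Kcnab3 a potassium channel subunit. Scn4b was nearest to Syt2 (0.987), Vamp1 (0.986) and Atp2b2, a calcium pump (0.986), Nefh to Kcnab3 (0.991), Vamp1 (0.991) and Syt2 (0.987), and Nefm to Kcnab3 (0.989), Vamp1 (0.988) and Lamp5 (0.988). Syt2 had a median of 12.9 CPM in the mPFC and 80.6 CPM in the ACC, a log2 fold change of -2.49 that was larger in size than that of any of the 8. Nefl was nearest to Ubl3 (0.982), Camk2g (0.98) and Epb41l3 (0.978). With the group means taken away and the 8 genes again left out, Vamp1 (0.927), Syt2 (0.895) and Cplx1 (0.835) were nearest to Pvalb, and Gm11549 (0.895), Atp2b2 (0.866) and Sgpp2 (0.852) to Scn4b. By the same measure Vamp1 (0.92), Kcnab3 (0.919) and Lamp5 (0.879) were nearest to Nefh, Lamp5 (0.908), Pacsin2 (0.862) and Sgpp2 (0.858) to Nefm and Pak1 (0.847), Plcxd2 (0.828) and Adam23 (0.822) to Nefl.

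The neighbours named for the other 3 genes were not among those named for Pvalb, Scn4b, Nefh, Nefm and Nefl. Erbb4 was nearest to Arhgap5 (r = 0.959), Eif5 (0.954) and Eps15 (0.95) over the 24 libraries and to Itch (0.951), Phc3 (0.948) and Arhgap5 (0.94) in deviations. Lhx6 was nearest to Rab15 (0.886), Rnf40 (0.885) and Ncaph2 (0.87), and in deviations to Pomgnt1 (0.885), Fbxo9 (0.878) and Ruvbl1 (0.877). Tac1 had the weakest neighbours, Dlg2 (0.737), Kctd12 (0.724) and Fgf13 (0.703), and in deviations AC121821.1 (0.764), Fgf13 (0.762) and Gcnt1 (0.754). These are descriptions of 24 libraries.

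The comparison of SNI with sham mice asks whether nerve injury changed these genes. None of the 8 was called in any of the 4 comparisons of 3 SNI with 3 sham pools by edgeR with the low-count filter or by DESeq2. Without that filter edgeR called Scn4b (0.43, adjusted p = 5.38e-17), Nefh (0.31, adjusted p = 1.25e-08) and Nefm (0.17, adjusted p = 0.00206) in the female ACC and Scn4b (-0.54, adjusted p = 4.4e-06) in the female mPFC, where it called 1.38% and 2.19% of all genes. Few genes were called at all. Of all genes tested, DESeq2 called 0.0726% in the mPFC and 0.287% in the ACC of females, and 2.52% and 0.0104% in males. By edgeR with the filter, females had 0.00592% called in the mPFC and 0.024% in the ACC, and males had 0.494% and 0.00599%. At an unadjusted p under 0.05 there were 2 of the 8 genes in the female mPFC, 4 in the female ACC and 0 in either region of males, where 12.1%, 6.67%, 11.2% (male mPFC) and 4.48% (male ACC) of all genes tested were under that limit. Log2 fold changes of the 8 genes ranged from -0.52 to 0.09 (mPFC) and 0.06 to 0.43 (ACC) in females, and from -0.10 to 0.15 and -0.18 to 0.06 in males.

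**Figure D5:**
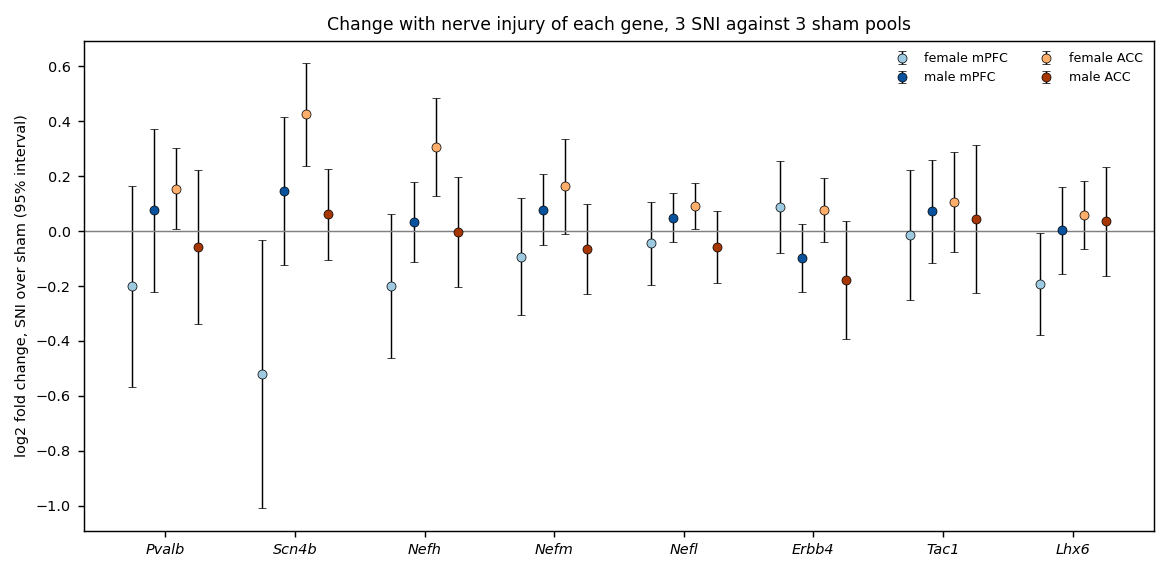
Log2 fold change of SNI over sham mice (vertical axis) for each of the 8 genes in each sex and region, with 95% intervals of the edgeR fit (3 against 3 pools). No gene passed the FDR of 0.1, and the widest interval is that of Scn4b in the female mPFC, from -1.01 to -0.03.

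In the female ACC all 8 estimates were above 0, and Scn4b had the largest. Its SNI pools, at 88.6 to 108 CPM, lay above its sham pools, at 63.9 to 83.4 CPM, a log2 difference of 0.43 (SE 0.09, unadjusted p = 0.000333, adjusted p = 0.309, 95% interval 0.24 to 0.61) in edgeR. Nefh, at 94.2 to 114 CPM in SNI and 72 to 91 CPM in sham pools, had 0.31 (SE 0.08, adjusted p = 0.54), and its groups did not overlap either. For 6.17% of all genes tested the 3 SNI pools of the female ACC lay above the 3 sham pools. Pvalb had 0.16 (SE 0.07, adjusted p = 0.732) and Nefl 0.09 (SE 0.04, adjusted p = 0.721), with overlapping pools. Without female sham ACC replicate 2, the pool with the highest sham values of Scn4b and Nefh, both genes passed the FDR of 0.1, with log2 fold changes of 0.53 (adjusted p = 0.0317) and 0.39 (adjusted p = 0.0794), in a fit that called 0.8% of all genes. The other 8 listed genes of parvalbumin cells had a median of 0.14 in this comparison with 0 called, and the 10 oligodendrocyte genes had a median of 0.18 with 0 called, at summed levels of 2586 to 4024 CPM in sham and 3090 to 4085 CPM in SNI pools. The 3 meningeal fibroblast genes had a median of -0.57 with 0 called, and their summed level did not overlap, at 31.5 to 43.1 CPM in sham and 24.3 to 24.8 CPM in SNI pools. The part of these cells in the values was not tested.

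In the female mPFC Scn4b was lower after SNI, at 17.2 to 27.2 CPM against 20 to 41.4 CPM, but the groups overlapped and the log2 fold change of -0.52 (SE 0.23, adjusted p = 0.413) did not pass the test. Lhx6 stood at 20 to 20.4 CPM in the SNI pools and 20.8 to 25.1 CPM in the sham pools, which did not overlap, with -0.19 (SE 0.09, adjusted p = 0.413). For 8.74% of all genes tested the SNI pools lay below the sham pools in this comparison. Without female sham mPFC replicate 3, both passed the FDR of 0.1, Scn4b with -0.74 (adjusted p = 0.0402) and Lhx6 with -0.27 (adjusted p = 0.0543), in a fit that called 15.9% of all genes. Without replicate 1 of the same group, the pool with the most Pvalb and Scn4b, the log2 fold change of Pvalb went from -0.20 to 0.04. All 10 striatal genes had negative log2 fold changes in the female mPFC, with a median of -0.32 and summed levels of 256 to 322 CPM in sham and 246 to 250 CPM in SNI pools, and the oligodendrocyte genes had a median of -0.54. Their part in the values of Scn4b was not tested.

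In males no value stood out. In the male mPFC the SNI pools of Nefl, at 474 to 479 CPM, lay just above the sham pools, at 455 to 471 CPM, which held for 6.95% of all genes tested, and the log2 fold change was 0.05 (SE 0.04, adjusted p = 0.684). Pvalb had 0.08 (SE 0.14) in the male mPFC and -0.06 (SE 0.13) in the male ACC, with 95% intervals of -0.22 to 0.37 and -0.34 to 0.22. Scn4b had 0.15 (SE 0.13) and 0.06 (SE 0.07), with intervals of -0.12 to 0.42 and -0.11 to 0.23. Erbb4 had the value farthest from 0 in the male ACC, -0.18 (SE 0.10, adjusted p = 0.768), and it passed the FDR when male sham ACC replicate 3 was left out (-0.28, edgeR adjusted p = 0.0354), in a fit that called 13.5% of all genes.

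Averaged over the sexes, DESeq2 called 0 of the 8 genes for SNI in the mPFC (0.492% of all genes tested) and 0 in the ACC (0.0162%). By edgeR 0 of the 8 were called in the mPFC (0.00567% of all genes tested) and 0 in the ACC (0.0174%). At an unadjusted p under 0.05 there were 0 in the mPFC and 2 in the ACC, namely Scn4b with 0.25 (SE 0.07, adjusted p = 0.782) and Nefh with 0.16 (SE 0.07, adjusted p = 0.782). The 95% interval of Pvalb was -0.33 to 0.21 in the mPFC and -0.12 to 0.23 in the ACC. Of the 8 other parvalbumin cell genes, 0 were called in either region, with Hapln4 at 0.14 (SE 0.04, adjusted p = 0.782) in the ACC and Ppargc1a at 0.07 (SE 0.05, adjusted p = 0.806) in the mPFC having the smallest p.

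Whether the change with SNI differed between regions or sexes was tested by interactions, which called 0% of all genes tested in each of the 3 fits with the low-count filter. For the 8 genes the region by SNI term was negative in 7 of 8, and Scn4b (-0.44, SE 0.19, adjusted p = 0.489) and Nefh (-0.24, SE 0.12, adjusted p = 0.523) had an unadjusted p under 0.05. The sex by SNI term of Scn4b was -0.67 (SE 0.31, adjusted p = 0.315) in the mPFC and 0.35 (SE 0.13, adjusted p = 0.753) in the ACC, and no other of the 8 genes had an unadjusted p under 0.05 in these fits. In these main fits the female values of Scn4b were thus not shown to differ from those of males in either region. Whether they differed between regions within females was not tested. The sex by SNI term of Scn4b in the mPFC passed without female sham mPFC replicate 3 (-0.89, edgeR adjusted p = 0.0488), where 18.3% of all genes were called. Without the low-count filter edgeR called it in the mPFC (-0.69, adjusted p = 3.19e-06, 2.79% of all genes) and in the ACC (0.37, adjusted p = 0.094, 0.357%). DESeq2 also called 0 of the 8 genes in the 3 interactions, but it did call other genes. It called 812 of 7707 genes tested for the sex by SNI term in the mPFC. For that term in the ACC it called 1 of 30809, and for the region by SNI term 20 of 13310. Whether all 8 genes were among the 7707 was not checked, so the 0 there may include genes without a test.

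Sham females and sham males were compared in each region, and 0 of the 8 genes were called in the mPFC, where 0.177% of all genes tested were, or in the ACC (0.0958%). In the mPFC 0 had an unadjusted p under 0.05. In the ACC there were 3, each lower in females: Nefh with -0.34 (SE 0.09, adjusted p = 0.54), Nefm with -0.28 (SE 0.08, adjusted p = 0.558) and Scn4b with -0.28 (SE 0.09, adjusted p = 0.62). DESeq2 called Nefh in the ACC (-0.34, adjusted p = 0.082), in a fit that called 0.401% of all genes tested. Nefh had 72, 91 and 83.1 CPM in the female sham and 99.9, 101 and 111 CPM in the male sham ACC pools, which did not overlap. The same female sham ACC pools were the controls of the SNI comparison above, in which these genes were higher after SNI, so the values are not independent of each other.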

How the data were processed

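RNA-seq read counts per gene, as deposited by the authors, were used for 24 libraries in 4 tables (2 regions in each sex). The region of a table was taken from its name, and sex, treatment and number from the labels. Per the labels, reads were processed with Trimmomatic 0.36, Bowtie2 2.33, HISAT2 2.1.0 (GRCm38), HTSeq 0.9.1 and edgeR 3.34.0. The strand setting is not given in the sources used here. Gene models were those of GENCODE M21.

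Counts were filtered with filterByExpr (minimum count 10, total 15), scaled by TMM and tested with the quasi-likelihood F-test of edgeR 4.0.16 in R 4.3.3, with Benjamini-Hochberg adjustment over all genes tested and an FDR threshold of 0.1. Intervals are 95% intervals of that fit. CPM values were computed from the library totals scaled by TMM, and log2 CPM used the same totals with a prior count of 2. The floor in CPM was computed from the unscaled totals. DESeq2 1.42.0, other size factors, no low-count filter, the current quasi-likelihood method, a replicate block, removal of the trend on GC content (loess span 0.4), a single model over 24 libraries and leaving out each library were alternatives, and the scripts were tested on simulated data. Replicate numbers were not used to pair the samples in the main fits, which treat the libraries as independent. No 2 groups correlated above 0.1 in all 3 numbers. Between regions, 0 to 4 of 6 libraries of a sex and treatment matched their own number best. With 3 pools a group this cannot exclude that mPFC and ACC pools of the same number came from the same mice. P-values measure the spread between pools.

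The 8 genes and the gene lists were chosen with earlier results of these data known. All 8 genes are named, and from each other list up to 4 genes with the smallest adjusted p in the region comparison, except where the text says otherwise and for some genes that are not reported here.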

Additional observations from a re-analysis of the deposited data

How the results depend on the processing

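The region calls of Pvalb, Scn4b, Nefh, Nefm and Nefl, in each sex and treatment and in the mean, held under every alternative run. Single-gene results were compared where they concerned the regions or where the value exceeded its SE, 90 in all, since smaller values have no settled sign. Of their 1476 values under alternatives, 618 came from other settings, of which 598 kept direction and side of the threshold, 1 lost the call, 16 gained it and 3 changed sign. The other 858 came from leaving out a library, of which 828 held, 7 lost the call, 15 gained it and 8 changed sign. With no low-count filter the number of the 8 genes called for SNI went from 0 to 1 in the female mPFC (2.19% of all genes called) and 3 in the female ACC (1.38%). In the means it went from 0 to 1 in the mPFC (1.92%) and 1 in the ACC (0.431%). It went from 0 to 2 for the region by SNI term (1.78% of all genes) and 1 for the sex by SNI term in the mPFC (2.79%) and in the ACC (0.357%). For females against males it went to 1 in the mPFC (1.58%) and in the ACC (0.399%). DESeq2 called 1 of the 8 genes for females against males in the sham ACC (0.401% of all genes tested). Leaving out 1 library gave 0 to 2 genes called for SNI in the female mPFC, the sham sex comparison in the mPFC and the sex by SNI term in the mPFC. The 2 came without female sham mPFC replicate 3, in fits that called 15.9%, 15.5% and 18.3% of all genes. For SNI in the female ACC 0 to 2 were called, the 2 without female sham ACC replicate 2 (0.8% of all genes). Leaving out 1 library also gave 0 to 1 for SNI in the male ACC, SNI in the ACC mean and the sex by SNI term in the ACC. The 1 came without male sham ACC replicate 3, in fits that called 13.5%, 7.27% and 9.65% of all genes. Signs changed with the GC trend removed for Erbb4 (SNI in the female mPFC -0.13, females against males in the sham mPFC 0.019, sex by SNI in the mPFC -0.064). Leaving out a library gave log2 fold changes of -0.33 to 0.04 for Pvalb after SNI in the female mPFC, -0.006 to 0.198 for Tac1 between regions in sham females, -0.003 to 0.13 for Lhx6 in sham males, -0.081 to 0.001 for Erbb4 and -0.052 to 0.069 for Lhx6 in SNI males (-0.022, -0.052 and -0.031 where the sign changed), and -0.135 to 0.011 for Nefh after SNI in the mPFC mean. With the replicate block, Tac1 was also called between regions in SNI males (0.25, adjusted p = 0.0467 in edgeR), which made 6 genes, and the block changed no other call of the 8 genes. The cause of these changes was not tested. In simulated data modelled on the regions of sham females, with 3 against 3 pools, 59 of 100 genes with a log2 change of 0.5 were called. In data modelled on SNI in the ACC mean, 74 of 100 were. These data also held genes with a log2 change of 1. Of the genes called at either size, 32 of 182 in the first and 26 of 194 in the second had been given no change. In data modelled on the region mean, 25 of 196 had been given none. Each of these shares was above the FDR threshold of 0.1. Changes below 0.5 and SNI comparisons of 3 against 3 pools were not simulated. How often changes of the size of most SNI values given here would be called was therefore not tested.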
